A study of Homo sapiens with 4 samples.

Results

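The Notch pathway was examined through 10 human genes, taken by symbol from the deposited count table of 60725 genes. They were 3 receptors (NOTCH1, NOTCH2, NOTCH3), 2 ligands (JAG1, JAG2), the sugar-transferring enzyme LFNG, the nuclear proteins RBPJ and MAML1, and the target genes HES1 and HEY1. Of these, 9 passed the filter of at least 10 counts in at least 2 libraries, as did 15356 genes in all, and NOTCH3 did not. The genes were measured by RNA-seq in RPE1 SunTag cells, a retinal pigment epithelial line (hTERT-RPE1) immortalized with telomerase that carries the SunTag system in both groups. Control cells received 10 nM of Silencer Select Negative Control No. 2 siRNA, and TOP2B knockdown cells 10 nM of the Dharmacon ON-TARGETplus SMARTpool against TOP2B, which encodes a DNA topoisomerase. Both groups were transfected again after 48 h and harvested 72 h later, on day 5. Each group had 2 libraries of 65-bp reads, single-end by the methods but marked as paired in the headers of the counts. The TOP2B knockdown rests on a single siRNA pool in a single cell line. The groups thus also differed in siRNA product, which cannot be told apart here from TOP2B depletion. The question was how TOP2B depletion altered transcript levels.

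Notch signalling passes between touching cells. A ligand of the Jagged or Delta family on one cell binds a Notch receptor on its neighbour, and the receptor is then cut in turn by an ADAM protease and by γ-secretase. The freed intracellular part moves to the nucleus, joins the DNA-binding protein RBPJ and a Mastermind protein, and switches on genes of the HES and HEY families, which encode transcriptional repressors. In the eye the pathway is known for its part in the growth of the pigmented cell layers.

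Of the 9 Notch genes tested, HEY1 was called higher in TOP2B knockdown at an adjusted p below 0.05, and no gene was called lower (0 also with the Wald test of DESeq2, and 1, JAG2, at an unadjusted p below 0.05). Of all 15356 genes tested, 10.8% were called (6.66% higher and 4.18% lower), and 4040 had an unadjusted p below 0.05 (edgeR). HES1 and JAG2 stood next, with HES1 at a 3.32-fold higher and JAG2 at a 0.53-fold level, and neither passed the adjustment. The remaining 6 genes had fitted log2 fold changes between -0.13 and 0.20. The median over the 9 genes was 0.12, beside -0.00 over all genes tested. HEY1 and HES1 were the least abundant of the 9 genes, so their fold changes rest on few reads.

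The promoter of HES1 is shown because this gene is the classical direct target of RBPJ. The sequence comes from RefSeq (GRCh38.p14), lies at chr3:194136062-194136091 on the plus strand, and covers bases -86 to -57 relative to the gene start. Capitals mark the letters TGGGAA, the core of the word RBPJ binds, and the starts of the 2 matches lie 14 bases apart.
HES1 promoter: tgTGGGAAagaaagttTGGGAAgtttcaca
Searched on both strands in windows from 250 bases before to 50 bases after each start, TGGGAA occurred in 24% of 35116 RefSeq promoters, and 3.8% held at least 2 matches. The longer form GTGGGAA, which contains TGGGAA, occurred in 6.25%, and the HES1 window held 1 match. The HES1 window also held 4 matches to the N-box CACNAG, the word that HES proteins bind, a number reached by 0.293% of promoters. Among the other Notch genes, TGGGAA was found in 1 of 5 RBPJ promoters, with 2 matches, and in both LFNG promoters, with 1 match each. The listed windows of NOTCH1, NOTCH2, NOTCH3, JAG1, JAG2 and MAML1 had no match. A match describes the letters and not a bound site.

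The libraries held 20310259 to 23887013 counts, so 1 CPM (counts scaled to library size by the TMM method) stands for 20.2 to 23.9 reads. TOP2B (ENSG00000077097, chr3:25597978-25664909, minus strand) had 155 and 144 CPM in control and 15.3 and 13.3 CPM in TOP2B knockdown, a log2 fold change of -3.38 (SE 0.14, adjusted p = 5.1e-06, edgeR's quasi-likelihood test). Of 13 retinal pigment epithelium markers, 7 were tested and 0 called (2 at an unadjusted p below 0.05, 0 with the Wald test of DESeq2), RPE65, TYR, TTR and CRX had no reads in any library, and the summed level was 1511 and 1823 CPM in control and 1181 and 1464 CPM in TOP2B knockdown. Of the 7, KRT8 (log2 fold change -0.35) and KRT18 (-0.39), which hold most of that sum, lay below 0 and the other 5 above, with a median of 0.19. MITF and OTX2, which encode transcription factors of pigment epithelium, reached 921 and 285 counts. None of the 4 blood and 4 keratinocyte markers passed the filter, and 3 of 4 endothelial and 3 of 6 fibroblast markers were tested without a call (1 of each at an unadjusted p below 0.05, and 1 fibroblast marker lower with the Wald test of DESeq2). Among 4 smooth muscle and pericyte markers, RGS5 was called lower, with a log2 fold change of -1.26 (adjusted p = 0.0022, edgeR), while ACTA2, CNN1 and MYH11 had 0.28, 1.69 and 0.86 and were not called (2 of these at an unadjusted p below 0.05). The median of this list was 0.57, and it summed to 48.6 and 57.2 CPM in control and 38.2 and 49 CPM in TOP2B knockdown. The part of these markers in the Notch results was not tested. In bulk RNA, fewer cells that express a gene and less of its RNA per cell cannot be told apart.

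**Figure D1:**
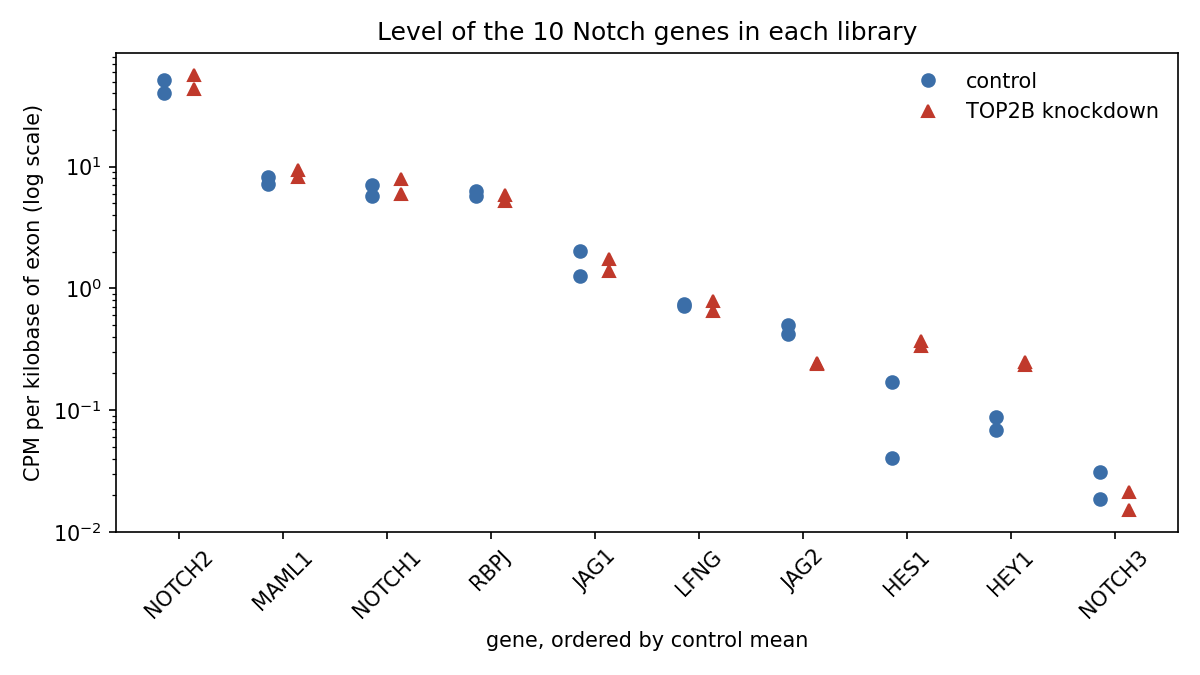
Level of each Notch gene in CPM per kilobase of exon (log scale) in the 2 control libraries (circles) and the 2 TOP2B knockdown libraries (triangles), ordered by the control mean. NOTCH2 stands highest at 40.2 to 56.8 CPM per kilobase and NOTCH3 lowest at 0.015 to 0.0311, and the groups lie clearly apart for JAG2 and HEY1. For HES1 they do not overlap, but its 2 controls lie far apart, at 0.0406 and 0.17 CPM per kilobase.

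Levels were compared between genes per kilobase of merged exons, where the 10 genes spanned 1841-fold in control. NOTCH2 led with 45.8 ± 7.92 CPM per kilobase (SD, n = 2), above 94.9% of the genes tested. MAML1 followed at 7.68 ± 0.766, NOTCH1 at 6.38 ± 0.895 and RBPJ at 6.03 ± 0.467 CPM per kilobase, of which the control libraries of NOTCH1 and RBPJ overlapped. The ligand JAG1 had 1.64 ± 0.535, LFNG 0.727 ± 0.0186 and JAG2 0.457 ± 0.055 CPM per kilobase. HES1 at 0.105 ± 0.0918 and HEY1 at 0.0782 ± 0.0138 CPM per kilobase overlapped in control, and stood above 2.88% and 1.73% of the genes tested. NOTCH3 closed the order at 0.0249 ± 0.00878 CPM per kilobase. In both groups the transcripts of NOTCH1, NOTCH2, RBPJ and MAML1 were thus more abundant per kilobase than those of the ligands and of the targets HES1 and HEY1. By coding length in place of merged exons 5 genes changed rank, with RBPJ second.

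For both receptors tested, the difference between the groups was smaller than that between replicates. NOTCH2 (ENSG00000134250, chr1:119911553-120100779, minus strand) had 859.9 and 673 CPM in control and 951 and 728 CPM in TOP2B knockdown, with overlapping groups. Its log2 fold change was 0.13 (95% interval -0.28 to 0.55, adjusted p = 0.705, edgeR's quasi-likelihood test), while the replicates of one group differed by 0.35 and 0.39. Replicate 1 was the higher in both groups, and the labels give no shared source for same-numbered replicates. With the replicate number as a block, NOTCH2 had an adjusted p of 0.019 (edgeR). Of its stretches of 65 bases, 3.73% also occur in other genes, the NOTCH2NL copies among them, and NOTCH2NLA itself had 41 and 19 counts in control and 20 and 29 in TOP2B knockdown.

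NOTCH1 (ENSG00000148400, chr9:136494433-136546048, minus strand) had 87.9 and 72.1 CPM in control and 99.1 and 75.3 CPM in TOP2B knockdown. The groups overlapped, and the log2 fold change of 0.12 (95% interval -0.23 to 0.48, adjusted p = 0.668, edgeR) was below the replicate differences of 0.29 and 0.40. With the replicate number as a block, NOTCH1 had an adjusted p of 0.0737 (edgeR). NOTCH3 (ENSG00000074181, chr19:15159038-15200995, minus strand), a receptor known from vascular smooth muscle and pericytes, had 7 and 4 counts in control and 3 and 4 in TOP2B knockdown, too few to test. NOTCH2 made up 87.8% and 87.3% of the summed level per kilobase of the 4 NOTCH genes in control and 87.7% in both TOP2B knockdown libraries. This NOTCH2 share of the receptor transcripts was thus within 1 percentage point in the 4 libraries.

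The ligands JAG1 and JAG2 encode membrane proteins that bind Notch receptors on neighbouring cells. JAG1 (ENSG00000101384, chr20:10637684-10673999, minus strand) had 18.7 and 11.7 CPM in control and 16.1 and 12.8 CPM in TOP2B knockdown, with both knockdown values inside the control range. Its log2 fold change was -0.07 (95% interval -0.56 to 0.42, adjusted p = 0.874, edgeR), and the control replicates alone differed by 0.68.

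JAG2 (ENSG00000184916, chr14:105140982-105168824, minus strand) had 76 and 61 counts in control and 33 and 31 in TOP2B knockdown, or 3.17 and 2.68 against 1.56 and 1.54 CPM. Both knockdown libraries lay below both controls. Over all genes tested, 54.3% had both knockdown libraries outside the control range in the same direction, and of the 9 Notch genes 4 did (HES1, HEY1 and MAML1 above, JAG2 below). The log2 fold change was -0.92 (SE 0.27, 95% interval -1.51 to -0.32, adjusted p = 0.0556, edgeR's quasi-likelihood test). This sits at the threshold, since the adjusted p was 0.0493 in edgeR scaled by DESeq2 size factors, 0.0151 without the filter on low counts and 0.165 with the Wald test of DESeq2. Without any one library the log2 fold change ranged from -1.03 to -0.79, and none of these fits called JAG2. The ratio of JAG1 to JAG2 per kilobase was 4.06 and 3.01 in control and 7.13 and 5.75 in TOP2B knockdown, so the groups did not overlap, and this ratio was not tested. Of the stretches of 65 bases of JAG2, 7.11% also occur in ENSG00000257622, which had no counted reads in any library. A count of 0 does not show where reads of shared stretches came from.

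LFNG encodes lunatic fringe, which adds a sugar to Notch receptors and so alters which ligands they answer to. LFNG (ENSG00000106003, chr7:2512529-2529177, plus strand) had 2.55 and 2.46 CPM in control and 2.69 and 2.23 CPM in TOP2B knockdown. The control values lay inside the knockdown range, and the log2 fold change was -0.02 (95% interval -0.59 to 0.54, adjusted p = 0.969, edgeR). The interval leaves room for changes of up to 0.59 on the log2 scale.

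RBPJ (ENSG00000168214, chr4:26163455-26435131, plus strand), the DNA-binding partner of the cleaved receptors, had 87.3 and 97.4 CPM in control and 79.4 and 89.4 CPM in TOP2B knockdown. The groups overlapped, with a log2 fold change of -0.13 (95% interval -0.41 to 0.15, adjusted p = 0.557, edgeR). Its pseudogenes RBPJP2, RBPJP5, RBPJP6 and RBPJP7, which share 0.619% of its stretches of 65 bases, had no counted reads. This does not show where reads of those stretches came from. MAML1 (ENSG00000161021, chr5:179732822-179777283, plus strand), the Mastermind coactivator, had 49.1 and 42.6 CPM in control and 56.3 and 49.3 CPM in TOP2B knockdown. Both knockdown libraries exceeded both controls by a narrow margin, and the log2 fold change of 0.20 (95% interval -0.09 to 0.49, adjusted p = 0.362, edgeR) was about the size of the differences of 0.20 and 0.19 between replicates.

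HEY1 and HES1 encode basic helix-loop-helix repressors that Notch signalling turns on. HEY1 (ENSG00000164683, chr8:79762371-79767857, minus strand) had 9 and 11 counts in control and 29 and 26 in TOP2B knockdown, or 0.376 and 0.483 against 1.37 and 1.29 CPM. Both knockdown libraries stood well above both controls. The log2 fold change was 1.62 (SE 0.39, adjusted p = 0.0265, edgeR's quasi-likelihood test), a 3.08-fold higher level with a 95% interval of 1.69 to 5.6.

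The HEY1 counts summed to 20 in control (exact Poisson 95% interval 12.2 to 30.9) and 55 in TOP2B knockdown (41.4 to 71.6), intervals that cover counting error only. The fold change kept its direction without any one library (log2 1.45 to 1.81). The call was lost without control replicate 1 (adjusted p = 0.0961, edgeR) and without TOP2B knockdown replicate 1 (adjusted p = 0.0617, edgeR), which leave 3 libraries. The Wald test of DESeq2 gave an unadjusted p of 0.0203 and, at this low level, no adjusted p.

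HES1 (ENSG00000114315, chr3:194136148-194138732, plus strand), whose promoter is printed above, had 2 and 8 counts in control and 16 and 14 in TOP2B knockdown, or 0.0835 and 0.351 against 0.755 and 0.694 CPM. The groups did not overlap, but the controls differed 4-fold in counts. The log2 fold change was 1.73 (SE 0.59, 95% interval 0.41 to 3.06, adjusted p = 0.095, edgeR's quasi-likelihood test). It ranged from 1.03 without control replicate 1 to 3.03 without control replicate 2, and only the latter fit of the 4 without a library called it (adjusted p = 0.0222, edgeR). Without the filter on low counts the adjusted p was 0.0306. The counts summed to 10 in control (exact Poisson 95% interval 4.8 to 18.4) and 30 in TOP2B knockdown (20.2 to 42.8).

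**Figure D2:**
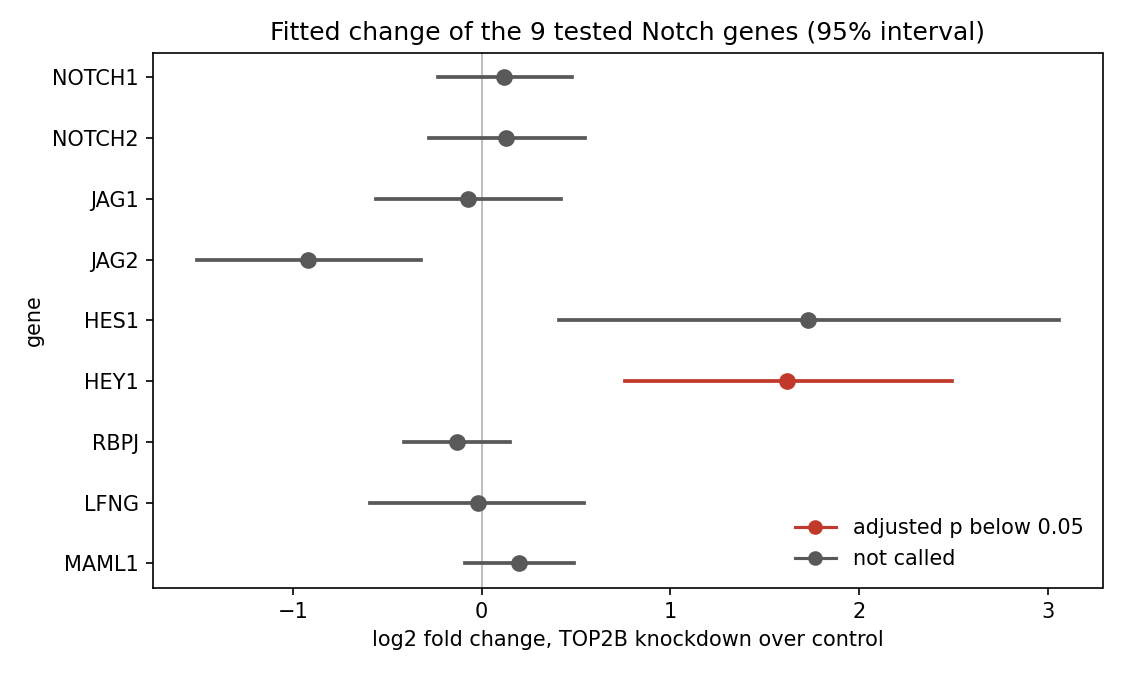
Fitted log2 fold change of TOP2B knockdown over control for the 9 Notch genes tested, with 95% intervals. The interval of HEY1 (0.76 to 2.49, red, called) excludes 0, as do those of HES1 (0.41 to 3.06) and JAG2 (-1.51 to -0.32), which were not called after adjustment over all genes.

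**Figure D3:**
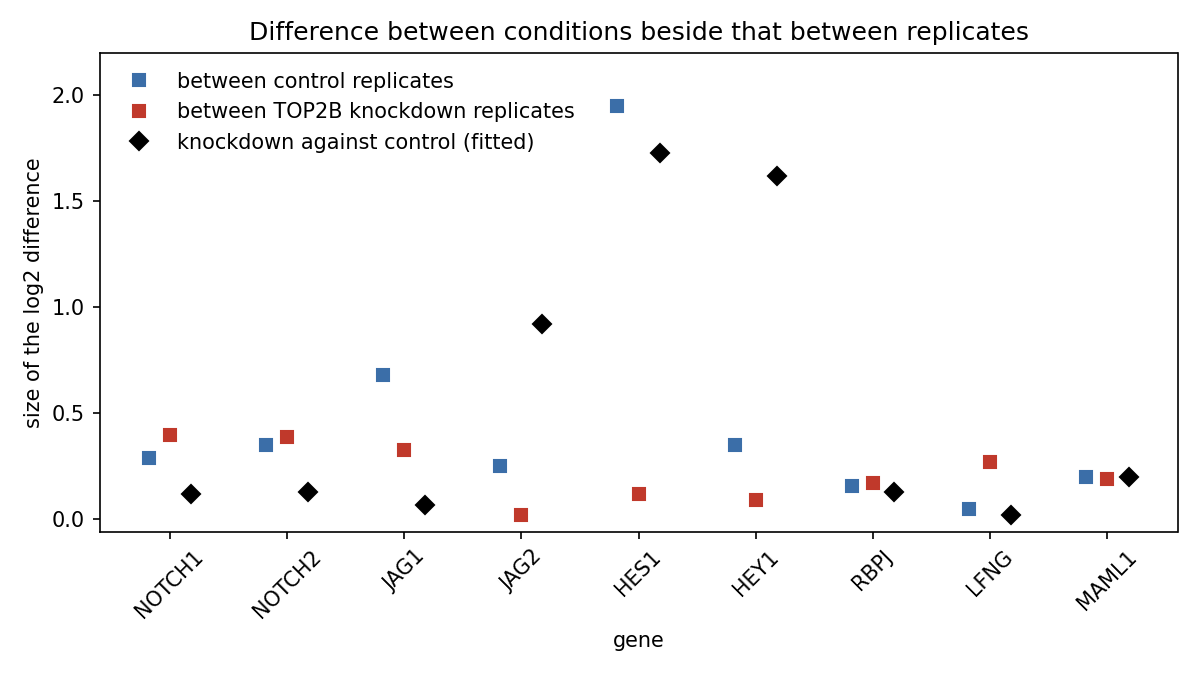
Size of the log2 difference between the 2 control replicates, between the 2 TOP2B knockdown replicates and between the conditions for the 9 genes tested. The difference between conditions clearly exceeds both replicate differences for HEY1 (1.62 beside 0.35 and 0.09) and JAG2 (0.92 beside 0.25 and 0.02), while for HES1 the controls alone differ by 1.95.

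Beside these genes, 74 further genes of the pathway were grouped in 7 lists by role, of which 64 were tested. In TOP2B knockdown 7 were called higher and 2 lower, or 9 of 64 beside 10.8% of all genes tested, and their median log2 fold change was 0.03. The calls were spread over 5 of the lists. A share this near to that of all genes is no result about the pathway.

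Of 6 other receptors and ligands, 4 were tested and none was called (also 0 at an unadjusted p below 0.05 and 0 with the Wald test of DESeq2). DLL1, a Delta ligand, had 6.47 and 3.29 CPM in control and 7.12 and 3.97 CPM in TOP2B knockdown, with a log2 fold change of 0.18. DLL3, a Delta family member that does not activate receptors on neighbouring cells, had 16 and 20 counts in control and 10 and 9 in TOP2B knockdown (log2 fold change -0.74, adjusted p = 0.313, edgeR). Of 5 sugar-transferring enzymes, 4 were tested and 1 was called, RFNG, the radical fringe relative of LFNG. It rose from 21.3 and 18.5 CPM to 32.2 and 35.4 CPM (log2 fold change 0.76, SE 0.13, adjusted p = 0.00747, edgeR). Exons of the GPS1 gene on the other strand cover 21.6% of RFNG exon bases, and reads of such overlaps cannot be assigned without strand. POGLUT1, which glucosylates the receptors, had the lowest log2 fold change of this list at -0.18.

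The 9 genes of the proteases that cut Notch receptors, γ-secretase subunits included, were all tested, and 2 were called higher and 1 lower, with a median log2 fold change of -0.30. FURIN, which makes the first cut during receptor maturation, rose from 145 and 119.7 CPM to 244 and 233 CPM (log2 fold change 0.85, SE 0.14, adjusted p = 0.00505, edgeR). The γ-secretase subunits did not move together. NCSTN, which encodes the subunit nicastrin, rose from 101 and 79.9 CPM to 179 and 159.6 CPM (log2 fold change 0.91, SE 0.14, adjusted p = 0.00462, edgeR). APH1B, another subunit, fell from 37.1 and 28.9 CPM to 23 and 21.1 CPM (log2 fold change -0.58, SE 0.15, adjusted p = 0.0367, edgeR). PSENEN, a further subunit, had 13.2 and 11.8 CPM in control and 8.78 and 8.88 CPM in TOP2B knockdown. Its groups did not overlap, yet its log2 fold change of -0.50 was not called (adjusted p = 0.071, edgeR), and 52.2% of its exon bases are shared with another gene. ADAM10 and ADAM17, the proteases of the ligand-induced cut, had log2 fold changes of -0.31 and -0.30 and were not called.

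Of 14 genes of ligand trafficking, receptor endocytosis and degradation, 13 were tested and 1 was called. NEURL1, a ubiquitin ligase that acts on ligands, fell from 39 and 35 counts to 10 and 13 (log2 fold change -1.50, SE 0.36, adjusted p = 0.0288, edgeR). Among the remaining genes of this list, MIB1, the main ubiquitin ligase of ligand activation in mammals, had a log2 fold change of -0.10 and NUMB, an inhibitor of Notch, also of -0.10. DTX3 had the highest value of the list, 0.18. The list had 10 genes below 0 and 3 above.

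None of the 7 coactivators was called (1 at an unadjusted p below 0.05, 0 with the Wald test of DESeq2), with a median log2 fold change of 0.26. The values ran from -0.11 for the acetyltransferase KAT2B to 0.39 for the acetyltransferase EP300 (adjusted p = 0.208, edgeR). Without any one library the log2 fold change of EP300 ranged from 0.11 to 0.62. With the replicate number as a block, where 44.2% of all genes tested were called, its adjusted p was 0.00014 (edgeR). MAML2 and MAML3, relatives of MAML1, had log2 fold changes of 0.11 and 0.28. Of 18 corepressors that act with RBPJ or with HES and HEY proteins, 17 were tested and 3 were called, each higher. HDAC1, a histone deacetylase of many repressor complexes, rose from 54.3 and 41.1 CPM to 91.5 and 98.9 CPM (log2 fold change 1.00, SE 0.15, adjusted p = 0.00325, edgeR). TLE3, a Groucho corepressor, rose from 14.8 and 18.5 CPM to 24.8 and 24.2 CPM (log2 fold change 0.56, adjusted p = 0.0394, edgeR). FHL1, a LIM protein of which one isoform binds RBPJ, rose from 15.3 and 17.3 CPM to 22.4 and 24.7 CPM (log2 fold change 0.53, adjusted p = 0.0399, edgeR). TLE4, another Groucho corepressor, had the lowest value of the list, -0.34.

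Of 15 other genes described as Notch targets, 10 were tested, 1 was called higher and 0 lower (5 higher and 0 lower at an unadjusted p below 0.05, 2 higher and 0 lower with the Wald test of DESeq2), with 8 above 0 and a median log2 fold change of 0.36. Over all genes, 4040 of 15356 tested had an unadjusted p below 0.05 (edgeR). The Wald test of DESeq2 called 917 genes higher and 645 lower. BHLHE40, a helix-loop-helix repressor that many signals besides Notch induce, rose from 44.4 and 46.7 CPM to 65.8 and 66.8 CPM (log2 fold change 0.54, SE 0.12, adjusted p = 0.0168, edgeR). Exons of its antisense gene BHLHE40-AS1 cover 12.8% of its exon bases. HES4, HES6, CCND1 and SOX9 had log2 fold changes of 0.52, 0.50, 0.50 and 0.40 and were not called (adjusted p between 0.0595 and 0.165, edgeR). ID1, a target shared with the BMP pathway, had 307 and 608 counts in control and 175 and 387 in TOP2B knockdown, so its replicates differed more than its groups (log2 fold change -0.53, adjusted p = 0.424, edgeR). Its call depended on the setting. ID1 was called lower without the filter on low counts (adjusted p = 0.0199, edgeR) and with the replicate number as a block (adjusted p = 0.000289, edgeR). It also depended on single libraries, since without any one of them its log2 fold change ranged from -1.27 to 0.10. HES5, HEYL, NRARP and HES2 had at most 2 counts in any library, and HEY2 did not pass the filter.

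**Figure D4:**
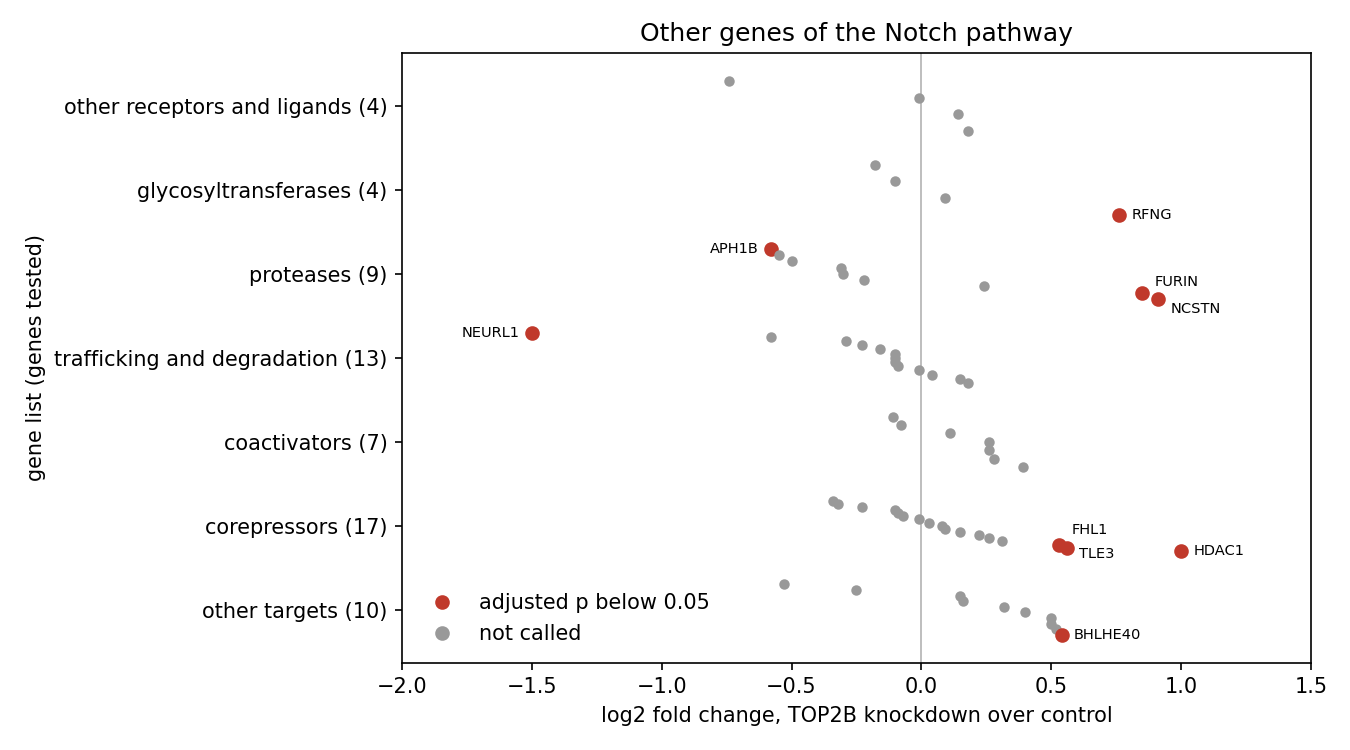
Log2 fold change of TOP2B knockdown over control for the 64 other pathway genes tested, by list, with called genes in red and named. FURIN, NCSTN, HDAC1 and RFNG lie between 0.76 and 1.00, NEURL1 at -1.50, and most of the remaining genes lie within 0.5 of 0.

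Of the 9 called genes, RFNG, FURIN, NCSTN and HDAC1 were called in each of the 4 fits without 1 library. APH1B, NEURL1, FHL1 and BHLHE40 were called in 2 of those fits and TLE3 in 1. With the Wald test of DESeq2, NEURL1 (adjusted p = 0.106), TLE3 (adjusted p = 0.053) and FHL1 (adjusted p = 0.0651) were not called, while CCND1 (adjusted p = 0.0282) and 1 further gene were gained, for 6 higher and 2 lower in all.

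The 3′ UTR sites of the word GCAACC are shown because, over all genes, it was already known to be frequent in genes called higher in these data. It occurred in the canonical 3′ UTR of 39.3% of 936 genes called higher, 19.8% of 606 called lower and 22.5% of 10843 not called. Of the 10 Notch genes only MAML1 held it, and HEY1 and HES1 did not. Of the 7 other pathway genes called higher, HDAC1, TLE3 and FHL1 held 1 site each, with the word in capitals and 12 bases on either side, 5′ to 3′ on the transcript strand from GRCh38. The word was also in 12 of the 55 tested pathway genes that were not called and in neither of the 2 called lower.
MAML1: gaaaatactcatGCAACCagcctgagtcgc
HDAC1: ggatacttttatGCAACCataagacaaact
TLE3: agtgtggaaaagGCAACCaggttggccgta
FHL1: atttagcaaaaaGCAACCctgcagcaaagt
The part of these sites in the changes was not tested.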

How the data were processed

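RNA-seq of 2 control and 2 TOP2B knockdown libraries was used, grouped by sample title. The authors mapped reads with STAR (2.5.4a in the submitters' processing notes) to GRCh38 and deposited raw read counts per Gencode v24 gene. A second, identical copy of the 4 columns was left out. The headers mark the reads as stranded and paired, whereas the methods describe single-end sequencing, and how strand was counted is not given in the sources used here.

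Genes reaching 10 counts in 2 or more libraries were tested with edgeR 4.0.16 in R 4.3.3 (TMM, glmQLFit and glmQLFTest with condition alone, Benjamini-Hochberg adjusted p below 0.05). The SE is the log2 fold change over the square root of F, and intervals are at 95%. Scripts were tested on simulated data. Positions, exons and 3′ UTRs came from GENCODE v44 (98.9% of tested genes matched), and promoters from a table of RefSeq promoters (that of HEY1 was not analysed here).

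The Notch genes and lists were chosen with earlier results of these data known. The rule for naming covered the 10 Notch genes, TOP2B, called genes and the highest and lowest fold change of each list, and near-identical copies. Single markers, the word sites and ADAM10, ADAM17, PSENEN, MIB1, NUMB, MAML2, MAML3, HES4, HES6, CCND1, SOX9 and the listed genes near 0 were chosen after their values were seen. Alternatives were DESeq2 1.42.0 (size factors within edgeR, and its Wald test), no filter, a mean of at least 100 counts, the replicate number as a block, fits without each library, and other gene lengths. The study describes its replicates as biological, and p-values measure the spread between these libraries. The result of 1 gene is not reported here.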

Additional observations from a re-analysis of the deposited data

How the results depend on the processing

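Depth limits HES1, HEY1 and NOTCH3, which had at most 29 counts in a library. Without the filter on low counts, 1358 genes were called higher in place of 1023 and 985 lower in place of 642. The Notch genes called there were 2 higher and 1 lower, with 4 other pathway genes lower in place of 2. The size factors of DESeq2 in edgeR called 965 genes higher and 686 lower, and gave 1 Notch gene lower in place of 0 (JAG2). With the Wald test of DESeq2, 0 Notch genes were called higher. A mean of at least 100 counts removed HEY1, HES1, JAG2, LFNG and NEURL1 before the test, which left 0 Notch genes called higher. There 0 other pathway genes were called lower, since APH1B, still tested, had an adjusted p of 0.0531 (edgeR). Same-numbered replicates deviated together (correlation 0.479), but the labels give no shared source. With the replicate block, 6786 genes (44.2% of those tested) were called in place of 1665, all 1665 among them. These were 3440 higher and 3346 lower, with 4 Notch genes higher and 2 lower, and 22 other pathway genes higher and 14 lower. HES1, NOTCH2, MAML1, JAG2 and RBPJ joined HEY1 there, at adjusted p of 0.0144, 0.019, 0.0106, 0.00366 and 0.0433 (edgeR). Fits without 1 library, in which the lone sample is assumed to vary like the other group, gave 0 to 2 Notch genes higher (0 without control replicate 1 or TOP2B knockdown replicate 1, 2 without control replicate 2), 1 to 3 other pathway genes lower (1 without control replicate 1) and a median of the Notch genes of -0.07 to 0.31. In these fits 7 of 27 named genes changed sign in at least 1: NOTCH1 (-0.08 to 0.29), NOTCH2 (-0.07 to 0.32), JAG1 (-0.37 to 0.31), LFNG (-0.16 to 0.09), DLL1 (-0.30 to 0.76), POGLUT1 (-0.36 to 0.04) and ID1 (-1.27 to 0.10). No sign changed under another setting. By the longest transcript 2 Notch genes changed rank by level, and by coding length 5. The causes were not tested.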
